A study of Mus musculus with 10 samples.

Results

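The 5 genes described here are known targets of the miR-17-92 microRNA cluster, active in growth, matrix and survival signalling, and were followed in Dicer mutant and wild type mouse limb buds: Phlpp1, Cyld, Stat3, Thbs1 and Ccn2. Every probe set that the platform annotation gives to exactly 1 of these symbols was taken, which made 12 probe sets for the 5 genes, out of 45037 probe sets on the array and 34945 with a single gene symbol. Phlpp1 and Ccn2 had 1 probe set each, Thbs1 had 2, and Cyld and Stat3 had 4 each. One more probe set lists Thbs1 together with another gene and was left out.

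The 10 arrays comprise 5 labelled Dicer mutant and 5 labelled wild type, numbered 1 to 5 in each group. Limb buds came from litters of homozygous floxed Dicer mice mated with partners that had 1 floxed Dicer allele and the prxcre driver, so every embryo, wild type included, inherits at least 1 floxed allele from the homozygous parent. The driver is a Cre transgene active in limb bud mesenchyme, and limb ectoderm, endothelium and blood cells keep Dicer. Whether heterozygous embryos stand among the arrays labelled wild type, whether an array holds 1 embryo or several, the embryonic stage and the use of forelimbs or hindlimbs are not stated in the labels. All p-values below therefore describe only the spread among these arrays, which may be technical.

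Dicer cuts hairpin precursors into mature microRNAs, which pair through their seed, bases 2 to 8, with sites in messenger RNAs and lower their stability and translation. A target freed from its microRNA is therefore usually expected to stand higher. The miR-17-92 transcript yields 6 microRNAs that promote growth and survival, and loss of the cluster disturbs skeletal development in mice and humans. In cultured cells, miR-18a has been tied to Ccn2, miR-19 to Thbs1 and Cyld, and miR-17 and miR-20a to Stat3.

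The 6 mature guide strands are shown because each recognises its targets through the seed. They lie on the plus strand of chr14:115043684-115044496 in RefSeq's GRCm38.p6 sequences, and the capitals mark the seed.
mmu-miR-17-5p: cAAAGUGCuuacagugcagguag
mmu-miR-20a-5p: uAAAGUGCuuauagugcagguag
mmu-miR-18a-5p: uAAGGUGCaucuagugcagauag
mmu-miR-19a-3p: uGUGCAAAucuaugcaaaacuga
mmu-miR-19b-3p: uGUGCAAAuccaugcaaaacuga
mmu-miR-92a-3p: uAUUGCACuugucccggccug
These 6 strands carry 4 different seeds, one shared by miR-17 and miR-20a and one by miR-19a and miR-19b. The miR-17 seed occurs in 7 mature mouse microRNAs of the RefSeq table and the miR-92a seed in 6, the extra ones coming from other loci, among them miR-106b and miR-25. The seeds of miR-18a and miR-19a occur in 2 each. The array measured messenger RNA and not these microRNAs, and the untranslated regions of the 5 genes were not analysed here.

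Labels and the targeted gene disagreed in 1 pair. Dicer1 at 1427941_at had signals of 226, 360, 221, 215 and 205 in Dicer mutant arrays 1 to 5, against 425, 233, 372, 390 and 706 in wild type arrays 1 to 5. The arrays labelled Dicer mutant 2 and wild type 2 each lay with the other group, and 1460571_at showed the same (774 in the array labelled Dicer mutant 2 and 551 in that labelled wild type 2). The labels do not say whether the excised exons overlap these probe sets. The 5 genes are therefore described in all 10 arrays as labelled and in the 8 arrays without number 2, and other genes mainly in the 8. The second comparison was chosen with the Dicer1 values known. The arrays also separated into numbers 1 to 3 and numbers 4 and 5 along the first principal component (37.7% of the variance), and values within each side are given where they matter. Median signals lay between 145.8 and 152.8.

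No probe set of the 5 genes passed limma's test at a Benjamini-Hochberg adjusted p below 0.05 in either comparison. Across the array the test called 0 of 22519 probe sets (0%) in the 10 arrays and 378 (1.68%) in the 8. Of the 5 genes, 9 probe sets lay above the intensity filter, and in the 8 arrays 5 of them stood higher and 4 lower in the mutant. At an unadjusted p below 0.05 stood both Thbs1 probe sets in the 8 arrays, where 12.7% of all tested probe sets did, and 1450377_at of Thbs1 in the 10, where 632 (2.81%) did. Each gene had at least 1 probe set above the filter, and in the 8 arrays the geometric means of all 9 stood above its cut of 151 in both groups. Represented by 1 probe set each, the 5 genes had a median log2 difference of -0.12 in the 8 arrays and -0.12 in the 10, where all 11601 genes had -0.013 and -0.026.

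**Figure D1:**
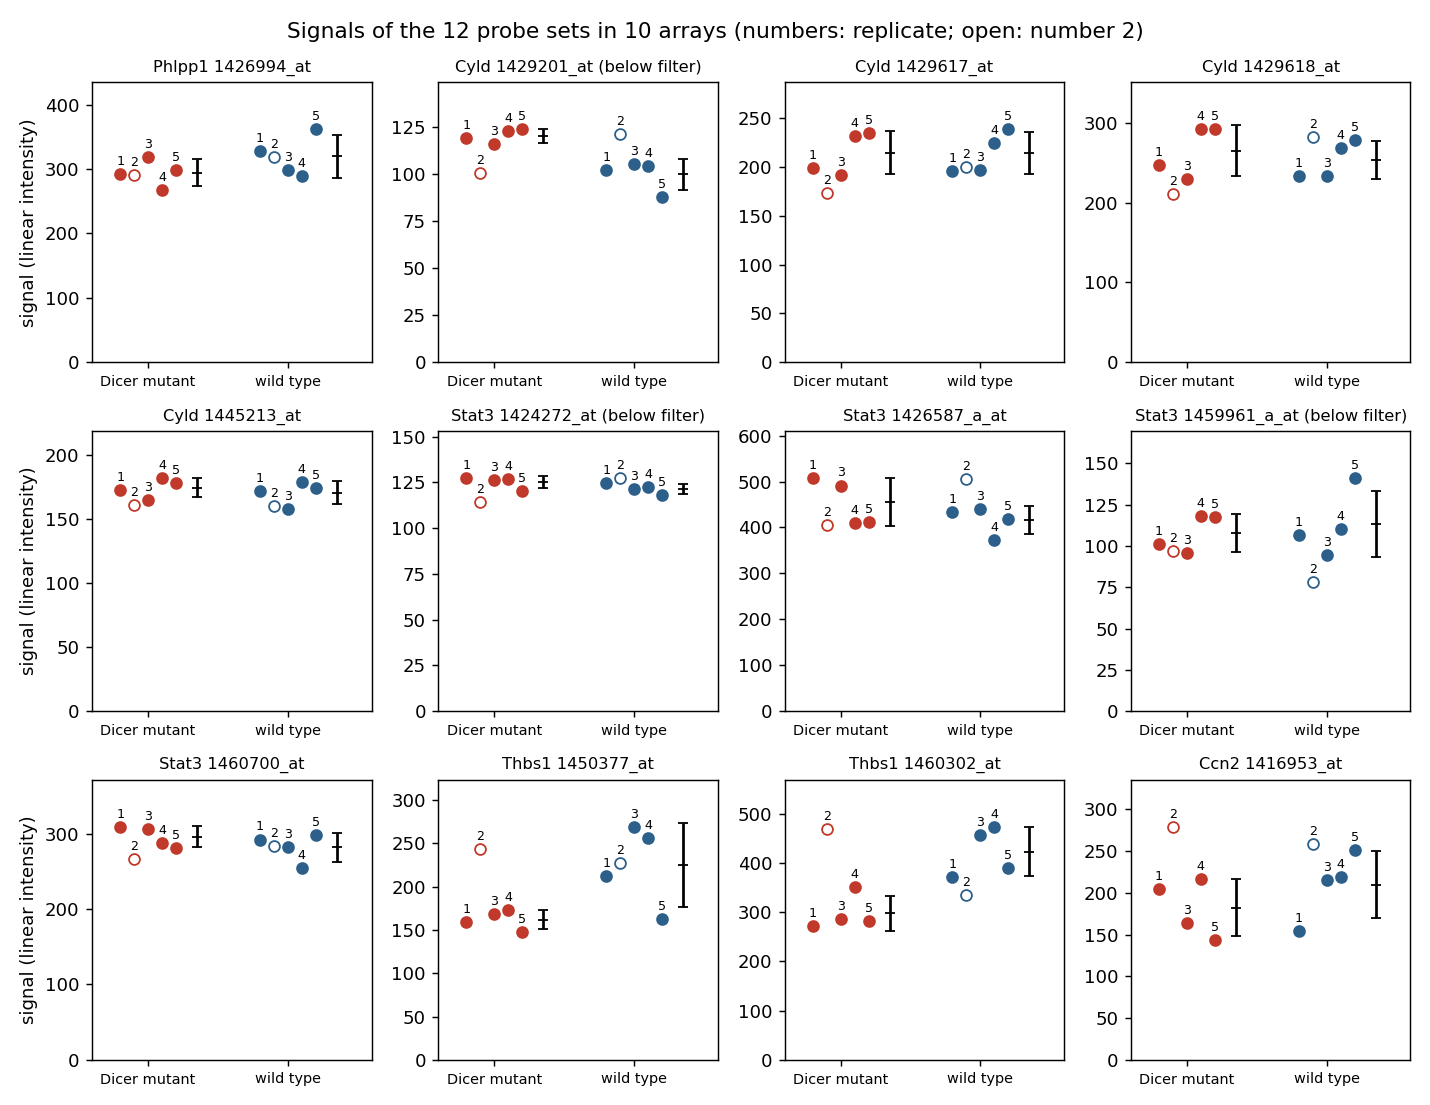
Linear signal of each of the 12 probe sets in the 10 arrays, Dicer mutant (red) left and wild type (blue) right in each panel. Points are single arrays with their replicate number, open points are number 2, and the black bars are the mean and SD of the other 4 arrays of a group. In these 4 arrays the groups separate at Thbs1 1460302_at and at the dim Cyld 1429201_at.

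Thbs1 encodes thrombospondin 1, a secreted matrix glycoprotein that restrains blood vessel growth and can activate latent TGF-beta. Its signals stood lower, not higher, in the mutant limb buds of 4 of the 5 pairs. At 1460302_at they were 272, 469, 287, 351 and 282 in Dicer mutant 1 to 5, against 371, 335, 457, 474 and 390 in wild type 1 to 5. Without number 2 every mutant array lay below every wild type array, which was true of 4.97% of all tested probe sets (9.09% did not overlap in either direction). In these bulk samples fewer cells of a type and less RNA per cell cannot be told apart. The array labelled Dicer mutant 2 lay among the wild type arrays, and the array labelled wild type 2 lay below Dicer mutant 4.

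In the 8 arrays 1460302_at averaged 298 ± 35.8 in mutant and 423 ± 50.2 in wild type limb buds (SD, n = 4 each). This is a log2 difference of -0.50 (SE 0.11, 95% confidence interval -0.76 to -0.25), or 1.42-fold lower, with limma's adjusted p = 0.0665. Permuting the arrays exactly, two-sided, gave p = 0.0286, the smallest value that 4 against 4 arrays allow. With the replicate number as a block, limma's adjusted p was 0.0145, and Thbs1 passed the threshold as lower in 4 of 4 pairs. Under that block 5.41% of all probe sets were called, 3.01% as lower, and 6.43% of genes taken by 1 probe set each. Correlations between the arrays did not settle whether a number marks a pair.

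The dimmer probe set, 1450377_at, read 159, 244, 169, 173 and 147 in Dicer mutant 1 to 5 and 213, 228, 269, 256 and 162 in wild type 1 to 5. Here wild type 5 fell inside the range of the mutant arrays, so the groups overlapped. The log2 difference in the 8 arrays was -0.45 (SE 0.15, interval -0.78 to -0.12; limma's adjusted p = 0.213, and 0.0418 with the block). The exact test gave p = 0.0857. Of the 8 refits that each left out an array, only the one without wild type 5 called this probe set (-0.60, limma's adjusted p = 0.0214). That refit also called more probe sets across the array than the 8 arrays did. None of these refits called 1460302_at. Of the 9 tested probe sets of the 5 genes, 2 were called under the block, both of Thbs1.

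As labelled, with all 10 arrays, 1460302_at of Thbs1 had a log2 difference of -0.31 (interval -0.65 to 0.032) and an exact two-sided permutation p of 0.127. For 1450377_at the difference was -0.34 (interval -0.68 to -0.0012), with an exact p of 0.111. Limma's adjusted p was 1.00 for both without the block and 0.898 with it. Pair 2 alone went the other way, by 0.49 and 0.10. Within the sides, 1460302_at differed by -0.56 in pairs 1 and 3 and by -0.45 in pairs 4 and 5, and 1450377_at by -0.55 and -0.35. Counting pair 2 in, pairs 1 to 3 gave -0.21 and -0.33.

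Thrombospondin 1 is made by mesenchymal, endothelial and blood cells, so markers of these cells were counted beside it. Of 10 endothelial markers 8 were measured and limma called 0 (0 unadjusted), Tie1 and Sox17 stayed under the filter, and the summed signal ranged from 2007 to 2283 in mutant and from 2000 to 2655 in wild type arrays. All 10 limb mesenchyme markers were measured, with sums of 11552 to 13281 in mutant and 11231 to 12927 in wild type arrays. Limma called 0 of them (3 unadjusted), and with the block Tbx4 (0.58, adjusted p = 0.00705) and Pdgfra (0.20, adjusted p = 0.0480) were higher. Of the 10, 4 stood higher and 6 lower in the 8 arrays (median -0.033), Tbx5 (-0.21) among the lower. For Pdgfra 2 of 3 tested probe sets stood higher. Of 10 white blood cell markers 5 were measured, with sums of 1149 to 1561 in mutant and 1166 to 1740 in wild type arrays, and Ptprc, Cd68, Adgre1, Cd14 and Lyz2 stayed under the filter. No probe set of these 3 lists was at 0 in any array. Limma called 0 of these white blood cell markers (2 unadjusted), but with the block Ctss (log2 difference 0.43, adjusted p = 0.0197) and Tyrobp (0.49, adjusted p = 0.0164) were higher. All 10 arrays gave 0.20 and 0.18 for Ctss and Tyrobp. Of 8 listed markers each, 5 of red cells, 8 of surface ectoderm and 6 of skeletal muscle were measured. Limma called 0 of them (0 unadjusted), and with the block the ectoderm marker Krt14 was lower (-0.39, adjusted p = 0.0435). In the 8 arrays 6 ectoderm markers stood higher and 2 lower, Krt14 among the latter (median 0.031). Surface ectoderm sums ranged from 3305 to 3628 in mutant and from 3287 to 4106 in wild type arrays. The part of any of these cells in the Thbs1 difference was not tested.

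Ccn2 encodes connective tissue growth factor, a secreted CCN family protein induced by TGF-beta and by YAP and TAZ and needed for cartilage matrix. Its only probe set, 1416953_at, read 205, 279, 164, 217 and 144 in Dicer mutant 1 to 5, against 154, 258, 215, 219 and 251 in wild type 1 to 5. The groups overlapped over most of their range, and the lowest array of each group was of another number. Without number 2 the log2 difference was -0.20 (SE 0.17, interval -0.59 to 0.18; limma's adjusted p = 0.757), and in the 10 arrays -0.14 (SE 0.18). The exact test gave p = 0.314 in the 8 and 0.540 in the 10 arrays.

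Pairs disagreed for Ccn2: it stood higher in the mutant array by 0.41 in pair 1 and 0.11 in pair 2, and differed by -0.40, -0.02 and -0.80 in pairs 3, 4 and 5. Pairs 1 and 3 together gave 0.0075, and pairs 4 and 5 gave -0.41. The related gene Ccn1, a matricellular protein driven by the same YAP and TAZ pathway, had 1030 in wild type 5, where the other 9 arrays lay between 101 and 239. Its log2 difference of -1.03 in the 8 arrays (SE 0.54, limma's adjusted p = 0.500) became -0.39 without wild type 5. Wild type 5 also had the highest Ccn2 signal of the 4 wild type arrays other than number 2.

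**Figure D2:**
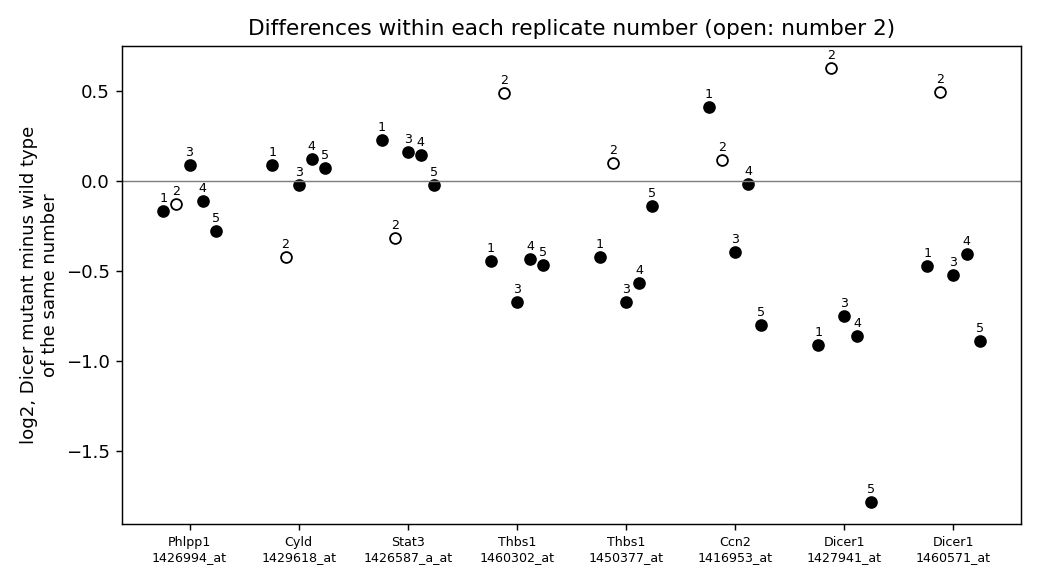
Log2 difference between Dicer mutant and wild type within each replicate number (y axis), for the brightest probe set of each of the 5 genes, the other Thbs1 probe set and both Dicer1 probe sets (x axis). Filled points are numbers 1, 3, 4 and 5 and open points number 2. Thbs1 and Dicer1 are below 0 in every filled point and above 0 at number 2, while Ccn2 runs from 0.41 to -0.80.

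Phlpp1 encodes a phosphatase that removes an activating phosphate from the survival kinase AKT. At 1426994_at the signals were 293, 291, 318, 267 and 299 in Dicer mutant 1 to 5, and 328, 318, 299, 289 and 362 in wild type 1 to 5. The values overlapped, with mutant 3 above wild type 3 and the mutant array lower in the other 4 pairs. The log2 difference was -0.12 in both comparisons (8 arrays: SE 0.093, interval -0.33 to 0.093, limma's adjusted p = 0.729). The upper bound of that interval corresponds to a level 1.07-fold that of wild type. The value was -0.055 without wild type 5, -0.039 in pairs 1 and 3 and -0.19 in pairs 4 and 5.

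Its paralog Phlpp2, a phosphatase with the same action on AKT and also a known target of the cluster, differed from it. Phlpp2 had 478, 330, 550, 527 and 532 in Dicer mutant 1 to 5, against 283, 561, 314, 317 and 233 in wild type 1 to 5. It rose 1.83-fold in the 8 arrays (log2 difference 0.87, SE 0.11, limma's adjusted p = 0.00774), and both arrays numbered 2 lay nearest the other group. The change of Phlpp2 exceeded that of Phlpp1 by 0.99 on the log2 scale (SE 0.19, n = 4 per group), with no overlap between groups, at an exact two-sided permutation p of 0.0286, the smallest possible. With all 10 arrays Phlpp2 differed by 0.55 (limma's adjusted p = 1.00) and the excess was 0.67 (SE 0.27, exact p = 0.0397). This pair of genes was set against each other after their values were seen.

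Cyld encodes a deubiquitinase that cuts linear and K63-linked ubiquitin chains and so restrains NF-kappaB signalling. Its brightest probe set, 1429618_at, gave 248, 211, 230, 292 and 293 in Dicer mutant 1 to 5, and 233, 283, 233, 268 and 279 in wild type 1 to 5. The arrays numbered 4 and 5 were the higher ones in both groups, apart from wild type 2. Across groups, numbers 4 and 5 averaged 283 and numbers 1 to 3 averaged 239 as geometric means. Between the groups the 8 arrays gave log2 differences of 0.064 (interval -0.17 to 0.30), 0.0025 and 0.031 at 1429618_at, 1429617_at and 1445213_at, with limma's adjusted p of 0.910, 0.998 and 0.930. All 10 arrays gave -0.034, -0.040 and 0.026 at these 3 probe sets, so the sign at the first and second turned with number 2.

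The fourth Cyld probe set, 1429201_at, lay below the filter, with 119, 100, 116, 123 and 124 in Dicer mutant 1 to 5 and 102, 121, 105, 104 and 87.5 in wild type 1 to 5. Without number 2 its mutant arrays all lay above the wild type arrays, by 0.27 on the log2 scale (exact two-sided permutation p = 0.0286). Each array numbered 2 again lay with the other group, and the 10 arrays gave 0.16 (exact p = 0.143). Every mutant array lay above every wild type array, number 2 aside, at 4.12% of the tested probe sets. Those all lie above the filter, so this share does not cover dim probe sets such as 1429201_at. The distance of such dim signals from background is unknown, and the 3 brighter Cyld probe sets did not show the separation.

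Stat3 encodes the transcription factor that carries signals from gp130 cytokine receptors and JAK kinases to the nucleus. Its brighter tested probe set, 1426587_a_at, gave 508, 405, 491, 410 and 412 in Dicer mutant 1 to 5, against 434, 505, 440, 372 and 418 in wild type 1 to 5. The groups overlapped, and numbers 4 and 5 were lower (geometric mean 402) than numbers 1 to 3 (462) across groups. The 8-array log2 difference was 0.13 (SE 0.10, interval -0.10 to 0.35; limma's adjusted p = 0.727), and at 1460700_at 0.073 (interval -0.097 to 0.24; adjusted p = 0.824). All 10 arrays gave 0.038 and 0.040.

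The dim Stat3 probe sets 1424272_at and 1459961_a_at, both below the filter, spanned 114 to 128 and 95.6 to 118 in mutant arrays, and 118 to 127 and 78.4 to 141 in wild type arrays. Their log2 differences in the 8 arrays were 0.042 and -0.055, with exact two-sided permutation p of 0.143 and 0.771, and in the 10 arrays 0.0032 and 0.017. At all 4 probe sets the Stat3 groups overlapped. The intervals of the 2 tested ones end at 1.28-fold and 1.18-fold, so a larger rise of Stat3 lies outside them.

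**Figure D3:**
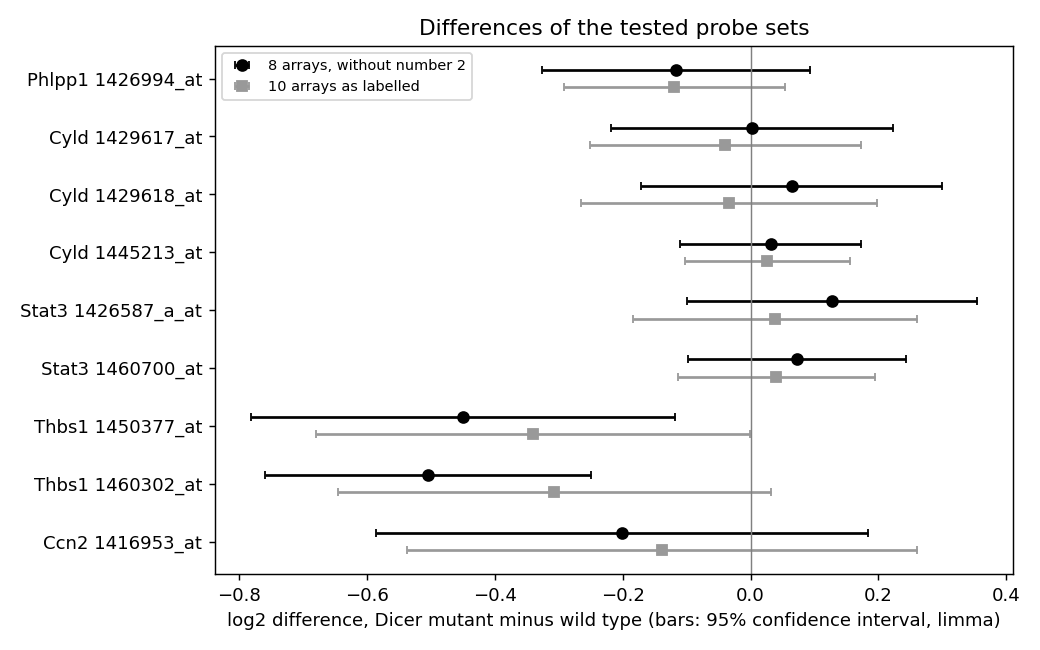
Log2 difference, Dicer mutant minus wild type, of the 9 tested probe sets of the 5 genes, with limma's 95% confidence intervals. Black circles are the 8 arrays without number 2 and grey squares the 10 arrays as labelled. Only the Thbs1 intervals of the 8 arrays (-0.78 to -0.12 and -0.76 to -0.25) and that of 1450377_at in the 10 arrays leave out 0.

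Other known targets of the cluster were counted beside these 5 genes. Of 16 listed, 14 were measured, and in the 8 arrays 3 rose and 0 fell at an adjusted p below 0.05, where 2.12% of all 11601 genes were called, 1.09% as higher and 1.03% as lower. Their median log2 difference was 0.15, where all genes had -0.013, and 13 of the 14 were above 0 (the share of all genes above 0 is not given). For Itch (0.047) and Smad4 (0.015) this rests on the probe set used, as only 1 of 3 tested probe sets of each had that sign. Bcl2l11, which encodes the pro-apoptotic protein BIM, had signals of 1448, 661, 1400, 1360 and 1429 in Dicer mutant 1 to 5, against 827, 1294, 771, 867 and 646 in wild type 1 to 5. It rose by 0.87 on the log2 scale in the 8 arrays (SE 0.097, limma's adjusted p = 0.00441), and differed by 0.50 in the 10. Bcl2l11 and Phlpp2 kept their calls without each of the 8 arrays in turn, at log2 differences of 0.78 to 0.92 in each case. Hipk3, a homeodomain-interacting kinase, rose by 0.43 (SE 0.087, limma's adjusted p = 0.0468), a call that held in 1 of the 8 such refits, the one without wild type 5. All 10 arrays gave 0.23 for Hipk3, 0 calls and a list median of 0.098. The list was chosen with earlier results on Bcl2l11 known.

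**Figure D4:**
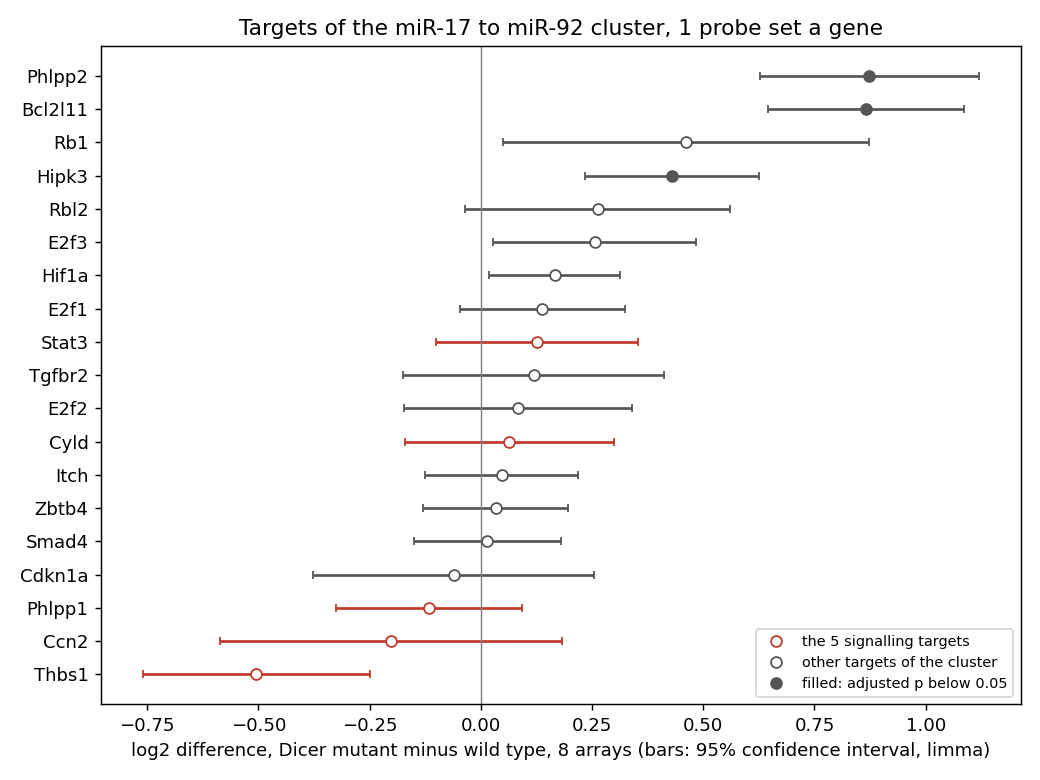
Log2 difference, Dicer mutant minus wild type, in the 8 arrays for the 5 signalling targets (red) and 14 other targets of the cluster (grey), 1 probe set a gene, with limma's 95% confidence intervals. Filled points passed an adjusted p below 0.05: Phlpp2, Bcl2l11 and Hipk3 lie at 0.43 to 0.87, and Thbs1 lies lowest at -0.50.

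Genes around the matrix members are read against the 2.12% of all genes called in the 8 arrays and the 12.7% of probe sets at an unadjusted p below 0.05. Of 14 thrombospondin relatives and receptors 9 were measured and limma called 0, with 1 at an unadjusted p below 0.05. That 1 was Itgav, the integrin alpha V chain (0.39, SE 0.097, limma's adjusted p = 0.101, higher in all 4 mutant arrays, and 0.16 in the 10 arrays), followed by the proteoglycan gene Sdc4 (-0.24, adjusted p = 0.779). In the CCN family 2 of 5 were measured and 0 called (0 unadjusted), Ccn1 and Ccn5 (0.069, limma's adjusted p = 0.817). Of 24 TGF-beta pathway genes 20 were measured and 0 called (3 unadjusted). Their median was 0.076, where all genes had -0.013, and 16 were above 0 (the share of all genes above 0 is not given). The ligand gene Tgfb2 had -0.40 (SE 0.14, limma's adjusted p = 0.240) and Pmepa1, a feedback inhibitor of the pathway, 0.16 (adjusted p = 0.314). The YAP and TAZ list had 17 of 20 measured and 0 called (4 unadjusted, median -0.0048). Amot, an angiomotin that holds YAP in the cytoplasm, had -0.36 (limma's adjusted p = 0.180), but only 2 of its 3 tested probe sets had that sign. The Hippo kinase gene Lats1 had 0.41 (limma's adjusted p = 0.246, and 0.0261 with the block). The 10 arrays gave -0.21 for Tgfb2, -0.16 for Amot and 0.17 for Lats1.

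For Lats2, the paralog of Lats1, the count of 0 depends on the probe set. It is represented by 1419678_at, which differed by 0.082 (limma's adjusted p = 0.814), as its brightest probe set carries the mark of shared sequence. That one, 1439441_x_at, was higher at 695 in mutant and 511 in wild type arrays as geometric means (0.44, SE 0.076, limma's adjusted p = 0.0281). The third, 1437101_at, was also higher (0.40, SE 0.067, adjusted p = 0.0267). Without the preference for unshared probe sets the list would count Lats2 as called. In the 10 arrays these 2 differed by 0.24 and 0.22, with limma's adjusted p = 1.00 each. Lats2 was looked at after its values were seen.

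Thbs1 and Ccn2 also respond to acute stimuli, so immediate early genes were counted beside them. Of 18 listed, all on the array, 8 were measured: Jun, Egr3, Ier2, Dusp1, Myc, Klf2, Klf6 and Srf. The rest stayed under the filter. Jun, a component of AP-1, fell by 0.53 on the log2 scale (SE 0.10, limma's adjusted p = 0.0410) and was the only 1 called in the 8 arrays, holding its call in 1 of 8 refits that each left out an array, the one without wild type 5. Of the 2 tested Jun probe sets, both lower in the 8 arrays, 1 was called. In the 10 arrays Jun had -0.33. The list's median was 0.020. Among 9 cartilage markers 6 were measured, while Acan, Matn1 and Matn4 stayed under the filter. In the 8 arrays 2 stood higher and 4 lower (2 unadjusted, median -0.23). The only 1 called was the collagen gene Col11a1, which fell (-0.58, limma's adjusted p = 0.0314), with -0.27 in the 10 arrays. That call likewise held only without wild type 5. Of the 2 tested Col11a1 probe sets, both lower, 1 was called. The summed cartilage signal ranged from 4371 to 6798 in mutant and from 5156 to 6979 in wild type arrays, and the part of cartilage cells in the Ccn2 and Thbs1 values was not tested.

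The lists around the survival and cytokine members are read against the same 2.12% of genes. The AKT list had 16 of 20 genes measured, and Phlpp2 was the only 1 called, with a median of 0.0097. Of 24 genes around CYLD and NF-kappaB 14 were measured and 0 called (0 unadjusted, median -0.068). The smallest p-values were those of Tnip1, a partner of the ubiquitin-editing protein A20 (-0.17, limma's adjusted p = 0.532), and Tab2, an adaptor of the TAK1 kinase (-0.15, adjusted p = 0.564). Of 15 cytokine and JAK genes upstream of STAT3 7 were measured and 0 called (0 unadjusted), Lifr having 0.10 and Jak1 0.11 (limma's adjusted p = 0.791 and 0.835).

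STAT relatives, regulators and targets of STAT3 had 13 of 21 genes measured and 0 called (1 unadjusted, median -0.0062). Ptpn11, which encodes the phosphatase SHP2 downstream of gp130, had -0.31 (limma's adjusted p = 0.202, and 0.0250 with the block), but the other 2 of its 3 tested probe sets had the opposite sign. Pias3, an inhibitor of STAT3, had -0.31 (adjusted p = 0.629, and 0.0483 with the block). Pim1, a STAT3-induced kinase, had 0.23 (limma's adjusted p = 0.429). In the 10 arrays Ptpn11 had -0.17, Pias3 -0.18 and Pim1 0.10. Over all 10 arrays 0 genes of any of these lists were called.

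As a description over 10 arrays that hold 2 groups and 2 sides, Thbs1 and Ccn2 had a Pearson r of 0.56. Ccn2 ranked 1447 of 11600 genes in likeness to Thbs1, and Thbs1 ranked 286 in likeness to Ccn2. Thbs1 and Stat3 had -0.65, and the other pairs lay between -0.30 and 0.23. Among 11600 other genes, those most like Thbs1 were Tsc22d3, Sec23a and Polg2 (r = 0.98, 0.97 and 0.97). For Stat3 they were Idh2, Ptk7 and Nfya (0.98, 0.97 and 0.97), and for Cyld Thumpd1, Fanci and Abhd10 (0.96 each). Ccn2 was closest to Gab2, Ednrb and Nexn (0.95, 0.90 and 0.90), and Phlpp1 to Pabpc1, Uck2 and Hk1 (0.92, 0.92 and 0.91).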

How the data were processed

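Limb bud RNA of each sample was measured on an Affymetrix array. The deposited values are linear intensity values, with similar medians on all arrays. GCOS 1.3 is named, per the submitters' processing notes, with summarization model and scaling target not given in the sources used here. Intensities under 1 were set to 1 and log2 was taken, with no further normalization. After removal of 64 control probe sets, the 22519 probe sets with a mean log2 value at or above the median (a signal of 151) were tested with limma 3.58.1 in R 4.3.3 (intensity trend, Benjamini-Hochberg over all tested probe sets, threshold 0.05). The code was tested on simulated data. Single probe sets were also compared by exact two-sided permutation of mean log2 values over 12 probe sets of the 5 genes, with p not adjusted. Genes outside the 5 were represented by their brightest tested probe set with 1 symbol, those whose identifier marks shared sequence being used where a gene had no other. Symbols are those of the platform annotation; 34741 identifiers matched the RefSeq table of GRCm38.p6, which updated 0. MicroRNA sequences are RefSeq's.

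The members, gene lists and the 8-array comparison were chosen with earlier results of these data known. Genes named are all probe sets of the 5 genes and Dicer1, and the 3 genes most like each member by Pearson r. Of each list, up to 4 called genes were named, or else the 2 with the smallest p in the 8 arrays. The following were discussed after their values were seen: Ccn1, Phlpp2 against Phlpp1, Lats2, Pias3, Col11a1, Krt14, Tbx4, Tbx5, Pdgfra, Ctss, Tyrobp, Itch and Smad4. As a check of pairing, the deviations from group means correlated between arrays of one number at 0.43, -0.18, 0.27, 0.67 and 0.41 for numbers 1 to 5 in the 10 arrays and at 0.55, 0.55, 0.71 and 0.32 for numbers 1, 3, 4 and 5 in the 8. The 8 arrays were also fitted with the number as a block, but these correlations do not settle whether a number marks a pair. In the 8 arrays different numbers correlated at up to 0.54, close to the 0.55 of numbers 1 and 3. Number 5 correlated less with its own number (0.32) than with another (0.52). In the 10 arrays numbers 2, 3 and 5 correlated more with another number (up to 0.56, 0.56 and 0.52) than with their own. No label says what a number marks. The number of arrays limits the precision.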

Additional observations from a re-analysis of the deposited data

Results flagged for a closer look

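An array was picked out where its gap to the nearest other array of its group took up most of the group's range (Dixon's test on log2 signals, in groups of 5 or, without number 2, of 4). This was so 13 times in 128 groups examined. Chance gives about 5% for genes picked without regard to their values, which not all of these were. Dicer1 was the reason to leave out number 2, and the list genes were named by their test results without number 2. The 13 cases therefore cannot be compared with that rate. Many of the groups of 4 are parts of the groups of 5.

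Of these, 4 concern the array labelled Dicer mutant 2 at genes called in the 8 arrays: Dicer1 had 360 at 1427941_at and 774 at 1460571_at, where the other mutant arrays had 205 to 226 and 506 to 555. Bcl2l11 had 661 against 1360 to 1448, and Phlpp2 had 330 against 478 to 550. Itgav stood at 958 in the same array against 1403 to 1521, and Tnip1 at 229 against 268 to 282.

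Wild type 5 was the outlying array for Cyld at 1429201_at (87.5 against 102 to 105 without number 2), Lifr (555 against 678 to 722) and Ccn1 (1030 against 144 to 207). Without number 2 it was also outlying for Itgav (1352 against 1016 to 1065) and Tgfb2 (409 against 525 to 538). Tnip1 had 375 in wild type 4, against 272 to 296 in the remaining wild type arrays (283 to 296 without number 2).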

How the results depend on the processing

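In the 10 arrays every one of the 21 alternatives (quantile normalization, median centring, offsets of 16 and 64, no filter, a filter at the 70th percentile, no trend, array weights, the replicate block, each array left out, each side alone) called 0 probe sets. In the 8 arrays the 378 calls became 2612 with array weights, 1219 with the replicate block, 812 in pairs 1 and 3 only and 0 in pairs 4 and 5 only, and ranged from 93 to 745 when each array was left out (93 without wild type 3, 745 without wild type 5). With the replicate block the called genes of the lists went to 13 against 5 of 162 without it, and those of the 5 members to 1 against 0, the 1 being Thbs1, while over all genes the share called was 6.43% with the block and 2.12% without it. In the 10 arrays the block called 0 in both sets. Thbs1 1460302_at passed with array weights (-0.46, limma's adjusted p = 0.0309), the block and pairs 1 and 3 only (-0.56, adjusted p = 0.0477), and 1450377_at with array weights (-0.57, adjusted p = 0.0143), the block and without wild type 5. Their values stayed below 0 in all alternatives, at -0.59 to -0.43 and -0.60 to -0.34 in the 8 arrays. The other 7 tested probe sets of the 5 genes passed under 0 alternatives. Probe sets that a filter removed have no value under it. Signals near the filter cut have an unknown distance from background, so the folds of the dim probe sets are uncertain.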
